A study of Mus musculus with 24 samples.

Results

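Voltage-gated ion channels are described here through 41 listed genes that encode sodium, calcium, potassium and HCN channel subunits. All 41 were matched by symbol to the Ensembl rows of the deposited table, which holds 43430 genes, and all 41 were among the 15300 genes with enough counts to be tested. The list leaves out well-known cerebellar channel genes, among them Cacna1a and Kcna1, and does not cover the gene class.

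RNA was measured by sequencing polyA-selected libraries of whole cerebellum from 24 mice of about 7 weeks. The labels give 4 genotypes, each in 3 males and 3 females: a Cre control, an NDI1 control, a conditional knockout (cKO) and the knockout with NDI1 (cKO+NDI1). Per the study's title the mice model a defect of mitochondrial complex I in the brain. NDI1 is a single-subunit NADH dehydrogenase from yeast that returns NADH to NAD+ and moves no protons. From what is known of the published model, the deleted gene is Ndufs4 and Cre is driven in the neural lineage by Nestin, which covers neurons and glia. The labels state neither that, nor the alleles carried by the 2 control groups, nor the strain. Each library is taken to be 1 mouse, as the labels speak of 6 mice per group.

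Voltage-gated channels open when the membrane potential shifts, and their pore is formed by an alpha subunit that smaller auxiliary subunits carry to the membrane and tune. In the cerebellum they set the fast, regular firing of Purkinje cells and interneurons and the excitability of granule cells. Mutations in several of them cause ataxia, which gives the comparison its interest in a model whose title names ataxia.

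Ndufs4, encoding an accessory subunit of complex I, ran from 67.1 to 133 CPM in cKO and from 77.1 to 120 in cKO+NDI1, with 104 to 164 for the Cre control libraries and 106 to 199 for those of the NDI1 control. CPM are read counts scaled to a common library size. The ranges overlapped, and the log2 fold change of −0.47 (SE 0.16) in cKO against Cre control missed the threshold (adjusted p = 0.0939, edgeR's quasi-likelihood test). A count over a whole gene does not show whether one exon was removed. Library totals ran from 7584374 to 19785264 counts, with a group median of 11547903 in cKO and 15254778 to 15874079 in the other groups. The labelled tissue was matched by its defining genes: granule cell Gabra6 was at 853 to 1354 CPM and Purkinje cell Pcp2 at 513 to 901 CPM. A list of 12 brainstem and spinal Hox genes summed to 22.4 CPM in Cre control M2, 25.0 in cKO F3 and 15.9 in cKO+NDI1 M3, against at most 7.54 in the other 21 libraries.

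The bases just upstream are shown for 2 members picked after their values were seen, Cacnb3 and Kcnn1. Cacnb3 was the 1 member called in a genotype comparison. Kcnn1 passed no adjusted threshold but had a positive estimate in NDI1 control against Cre control and in cKO+NDI1 against cKO. These bases come from the RefSeq promoter table for GRCm38, which held 33 of the 41 members, and stop before the first base of the deposited gene model. Each is written 5′ to 3′ on the gene's strand, and capitals mark matches on either strand to the CCAAT box, to the GC box core GGGCGG or to the TATA box core TATAAA. Cacnb3 is on chromosome 15, and the printed stretch is chr15:98632078-98632219 on the plus strand.
Cacnb3: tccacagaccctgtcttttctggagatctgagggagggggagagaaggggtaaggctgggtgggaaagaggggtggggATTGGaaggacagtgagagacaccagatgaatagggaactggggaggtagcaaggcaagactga
Kcnn1 is on chromosome 8, and its stretch is chr8:70857009-70857258 on the minus strand.
Kcnn1: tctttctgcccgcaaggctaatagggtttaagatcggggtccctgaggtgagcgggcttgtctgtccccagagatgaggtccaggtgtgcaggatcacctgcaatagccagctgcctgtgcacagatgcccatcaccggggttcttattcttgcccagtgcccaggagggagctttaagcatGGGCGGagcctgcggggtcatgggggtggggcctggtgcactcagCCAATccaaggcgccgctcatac
The 142 bases of Cacnb3 held 1 match to CCAAT (as ATTGG) and 0 CpG dinucleotides. In windows of that length at the same place, 18.9% of 32851 promoter regions held CCAAT and the median region had 3 CpG. The 250 bases of Kcnn1 held 1 CCAAT and 1 GGGCGG, motifs found in 33.8% and 32.7% of regions of that length, and 8 CpG against a median of 6. TATAAA was not matched in either, and 6.99% and 12.4% of regions of the respective lengths hold it. These matches describe the letters only.

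Levels were compared between genes as CPM per kilobase of annotated exon, a unit that takes gene length into account. On that scale the 41 genes spanned from 94.98 for Scn2b, a sodium channel beta subunit, to 0.115 for Scn3a, a sodium channel pore gene best known from the developing brain. Behind Scn2b came Hcn2 at 65.2, Kcnc1 at 54.2, Kcnd2 at 53.4, Kcnip4 at 38.9, Cacna1g at 34.6 and Cacnb4 at 34.3, all as means over 24 libraries. Kcnc1 encodes a fast Kv3 potassium channel, Kcnd2 an A-type Kv4 channel and Kcnip4 its cytoplasmic partner, while Cacna1g encodes a T-type calcium channel.

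Among sodium channel pores, Scn2a and Scn1a lay side by side at 17.3 and 16.5 CPM per kilobase, with Scn8a at 11.1. In the Cre control Scn2a made up 39.5% ± 1.89 (SD, n = 6) of the summed level of the 4 listed pores and Scn1a 36.1% ± 3.73. The order of these neighbours was thus within the spread between libraries. Among beta subunits Scn2b was followed by Scn4b at 23.2, and Scn3b was at 0.922.

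Among the 4 listed high-voltage calcium channel pores, which do not include the P/Q-type Cacna1a, Cacna1b (N-type) at 3.14 CPM per kilobase and Cacna1e (R-type) at 3.05 lay side by side, above Cacna1d at 2.28 and Cacna1c (both L-type) at 1.66. Cacna1b was above Cacna1e in 15 of 24 libraries and below it in the mean of the NDI1 control (3.00 and 3.07), so these neighbours were within the spread between libraries. Cacna1g took 85.6% ± 1.21 of the T-type level in the Cre control, with Cacna1i at 13.8% ± 1.03 and Cacna1h making up the rest. Of the alpha2delta subunits Cacna2d2 was the highest at 19.05, ahead of Cacna2d3 at 5.80 and Cacna2d1 at 4.44, and of the beta subunits Cacnb4 at 34.3, ahead of Cacnb3 at 16.3 and Cacnb2 at 3.54. Mutations of mouse Cacnb4 and Cacna2d2 are the lethargic and ducky ataxia models.

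Potassium channel genes covered the widest set of roles. The Kv1 auxiliary subunit Kcnab2 was at 33.2 CPM per kilobase, above the pores Kcna2 at 13.7 and Kcna6 at 11.4. Kcnb2 (Kv2) was at 0.299, Kcnc4 (Kv3) at 18.6, Kcnip1 (a Kv4 partner) at 14.5, Kcnh1 (EAG) at 6.47 and Kcnh7 (ERG) at 0.485. The calcium-activated BK channel was represented by its pore Kcnma1 at 4.05 and its neuronal beta subunit Kcnmb4 at 9.07. SK channels gave 5.84 for Kcnn2 and 2.37 for Kcnn1, and the M-current genes 1.41 for Kcnq3 and 0.221 for Kcnq5. Among the 3 listed pacemaker HCN genes Hcn2 made up 96.0% ± 0.43 of the summed level (SD over 24 libraries). Its share ran from 95.2% to 96.6%, with all 4 groups overlapping. Hcn3 was at 1.80 CPM per kilobase, Hcn4 at 0.919 and the Kv3 gene Kcnc2 at 0.942.

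**Figure D1:**
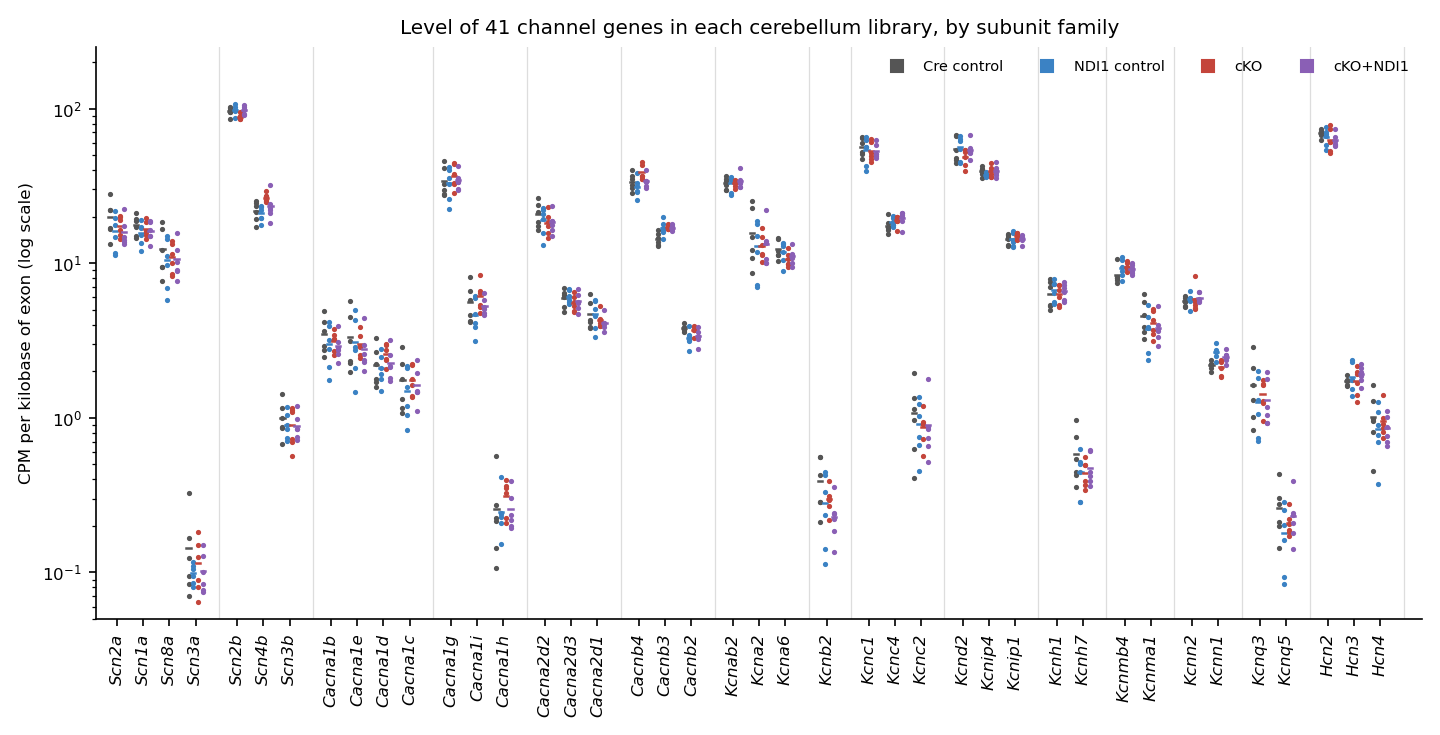
Level of each of the 41 genes in CPM per kilobase of exon (log axis), with 1 dot per library, short lines for group means and colours for the 4 genotype groups. Levels run from 94.98 for Scn2b to 0.115 for Scn3a, and cKO and Cre control overlap in most genes.

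Some of these values carry limits from the gene models. The deposited Kcna2 row spans 3531 of the 11906 exon bases in GENCODE, so its level may be incomplete. Exons of 14 of the 41 genes overlap another gene, most of all Kcna6 (2355 bases), Cacnb4 (1433 bases), Kcnmb4 (1048 bases) and Kcnma1 (1016 bases). The library kit is not stated to keep strand, and reads from such pairs cannot be told apart.

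The first comparison asks what the knockout did to these genes. Between cKO and Cre control 1 of the 41 passed an adjusted p of 0.05, Cacnb3, which was higher in cKO. Among all genes tested 4.87% passed in either direction and 3.06% passed as higher, so a share of 1 in 41 is no more than the background. At an unadjusted p under 0.05 there were 6 of 41, against 18.5% of all genes. DESeq2 and limma-voom each also called 1. Fold changes were small: none exceeded 0.5 on the log2 scale, the median was −0.08 against −0.01 for all genes tested, and 13 were positive and 28 negative. For 23 of the 41 genes the whole 95% interval lay within ±0.5, while it reached −0.97 for Kcnc2 and 0.92 for Cacna1h.

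**Figure D2:**
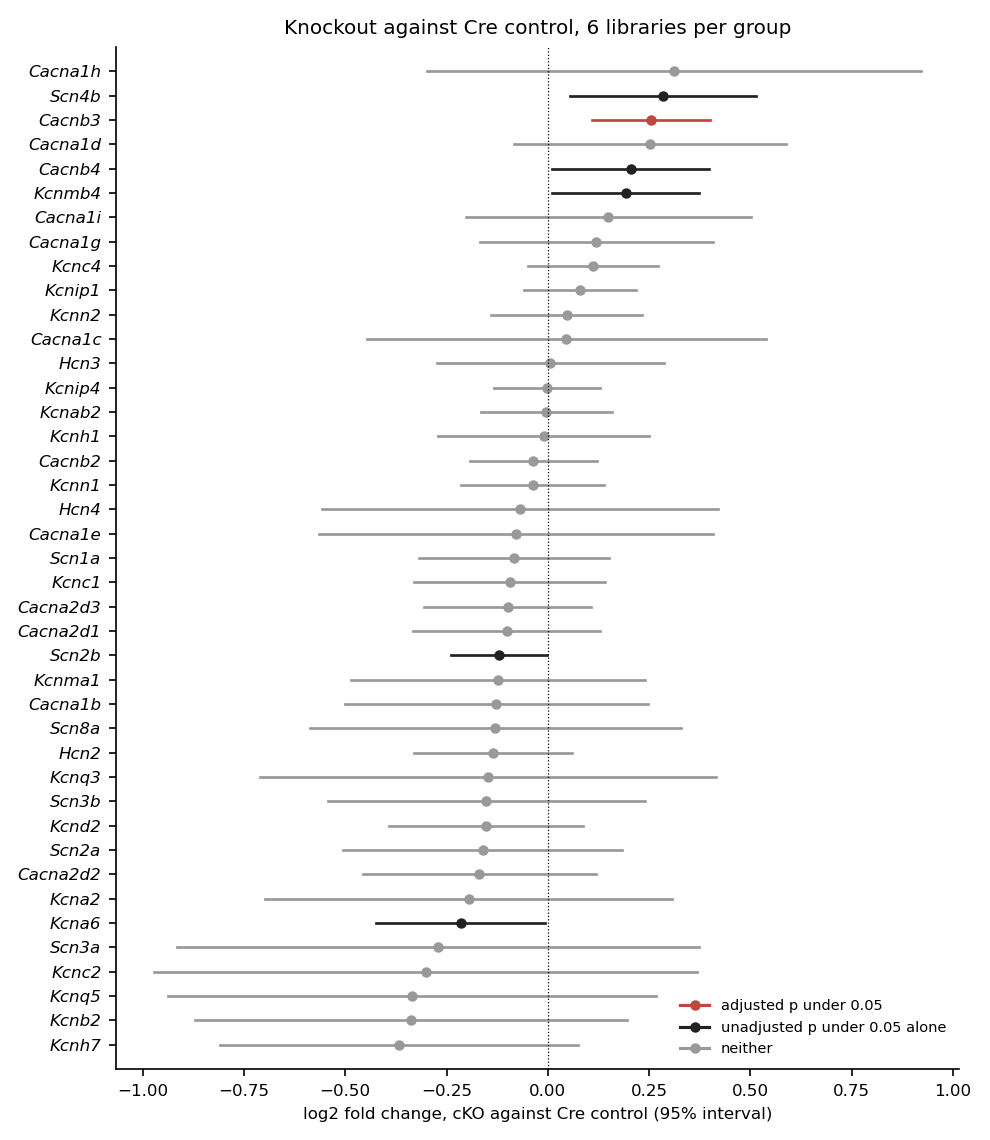
Log2 fold change of each gene in cKO against Cre control with its 95% interval, 6 libraries per group, ordered by the estimate. Cacnb3 (0.26) is the 1 gene past the adjusted threshold, and the widest intervals belong to genes of low level such as Kcnc2 and Cacna1h.

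Cacnb3 encodes a cytoplasmic beta subunit of high-voltage calcium channels and lies on chromosome 15 from 98632220 to 98644530. Its lowest, median and highest CPM were 46.0, 50.2 and 58.5 in the Cre control and 58.9, 60.8 and 64.0 in cKO. The 2 groups did not overlap, although the highest Cre control library, F3, came close to the lowest cKO library. The share of all genes tested with separate groups was not computed, so this separation is given as a description only. The log2 fold change was 0.26 (SE 0.07), a fold of 1.19, with an adjusted p of 0.0348 in edgeR's quasi-likelihood test. The call depended on single libraries. It was lost when any 1 of 8 libraries was left out (Cre control M2, M3, F1 or F2, or cKO M1, M3, F1 or F2), with log2 fold changes of 0.22 to 0.26 and adjusted p of 0.0507 to 0.0994.

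The same gene was then read in the 2 groups with NDI1. Cacnb3 ranged from 50.8 to 70.8 CPM in NDI1 control libraries (median 59.5) and from 57.1 to 64.0 in cKO+NDI1 (median 60.6). Against Cre control it was 0.24 higher on the log2 scale for NDI1 control (SE 0.07, unadjusted p = 0.0026, adjusted p = 0.271) and 0.25 higher in cKO+NDI1 (SE 0.07, adjusted p = 0.0832). These 3 comparisons share the Cre control libraries. The knockout's effect in the presence of NDI1 minus that in its absence was −0.25 (SE 0.10, adjusted p = 0.895). The Cre control thus had the lowest median of the 4 groups.

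The auxiliary subunits of sodium channels came next. Scn4b, implicated in the resurgent sodium current in Purkinje cells, had 84.9, 111 and 125 CPM (lowest, median, highest) in the Cre control and 123, 130 and 146 in cKO. Only Cre control F1 reached into the cKO range. The log2 fold change was 0.28 (SE 0.11, unadjusted p = 0.017, adjusted p = 0.146), so it missed the threshold. Scn2b had 392, 442 and 464 CPM in the Cre control libraries and 389, 399 and 431 in cKO, a log2 fold change of −0.12 (SE 0.06, adjusted p = 0.257). The groups overlapped in both genes.

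Within each library, the balance of the 2 subunits was more separate than either gene. Scn4b made up 15.9% to 20.95% of the summed level per kilobase of the 3 listed beta subunits in the Cre control. It made up 15.2% to 20.2% in NDI1 control libraries and 21.7% to 25.6% in cKO, which overlapped neither control. In cKO+NDI1 it was 16.6% to 25.6%, where the upper end was M3 alone, the library with a Hox sum of 15.9 CPM. The other 5 cKO+NDI1 libraries lay at 16.6% to 18.7%, below every cKO library. These shares were chosen after their values were seen and are given without a test.

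**Figure D3:**
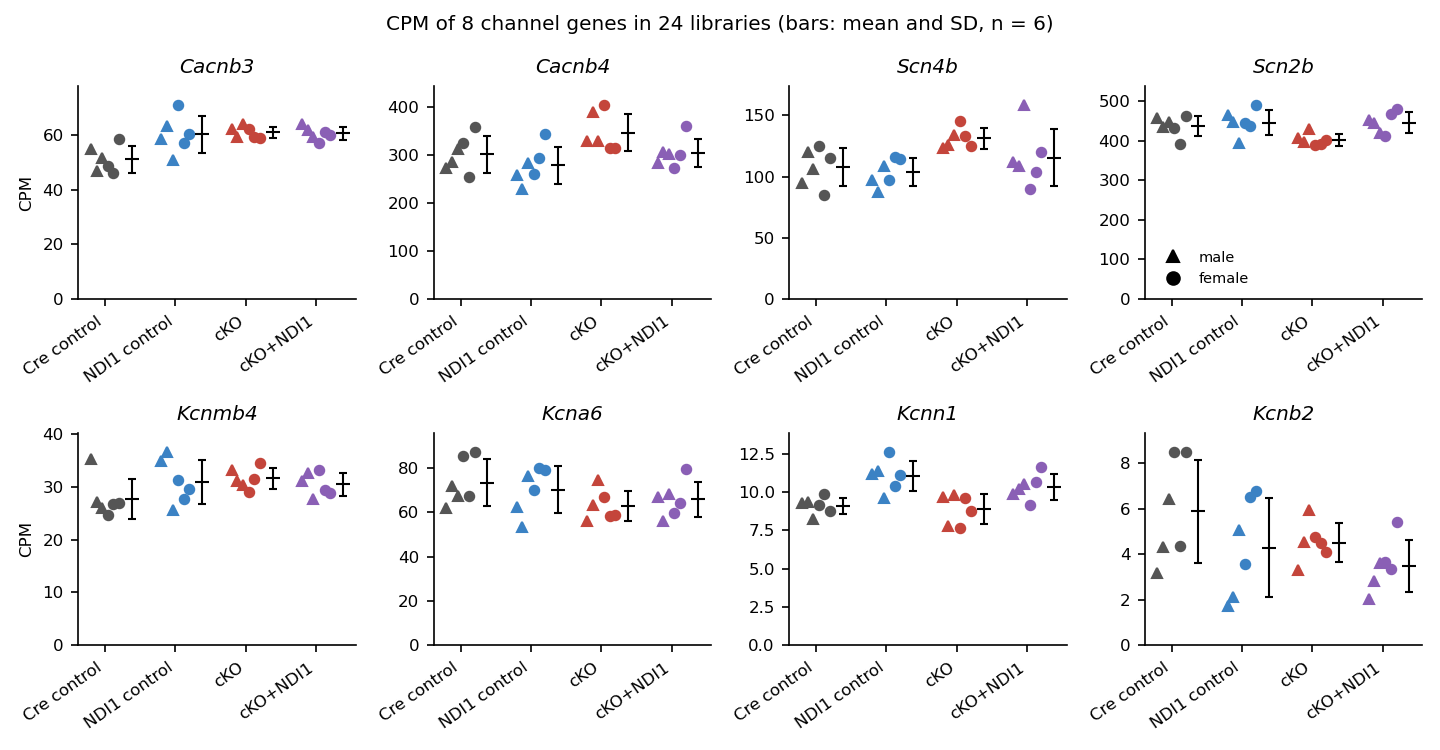
CPM of 8 genes in each library by group (triangles males, circles females; bars give mean and SD, n = 6; axes start at 0). Cacnb3 has its lowest median in the Cre control, and Kcnn1 has higher medians in the 2 groups with NDI1, with overlap.

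2 further auxiliary subunits had positive estimates. Cacnb4 had 254, 299 and 358 CPM in the Cre control libraries and 315, 330 and 404 in cKO, a log2 fold change of 0.20 (SE 0.09, adjusted p = 0.238). Kcnmb4 had 24.6, 26.7 and 35.1 CPM and 29.0, 31.3 and 34.5 CPM, a log2 fold change of 0.19 (SE 0.09, adjusted p = 0.233). Each pair of ranges overlapped, for Kcnmb4 through the 1 Cre control library M1. Cacna1d, an L-type pore, had 19.5, 24.7 and 40.3 CPM in the Cre control libraries and 25.6, 31.5 and 37.1 in cKO (log2 0.25, SE 0.16, adjusted p = 0.44).

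Potassium channel genes made up most of the remaining small p-values. Kcna6, a Kv1 pore, had 61.8, 69.4 and 87.1 CPM in the Cre control libraries and 55.9, 60.8 and 74.2 in cKO (log2 −0.21, SE 0.10, adjusted p = 0.253). Kcnh7 had 5.42, 7.48 and 14.6 CPM and 5.19, 6.71 and 8.52 CPM (log2 −0.37, SE 0.21, adjusted p = 0.382). Kcnd2 had 228, 264 and 348 CPM and 203, 261 and 279 CPM (log2 −0.15, SE 0.12, adjusted p = 0.539). The cKO range lay largely inside or beside that of the control in each of these 3 genes.

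Kcnc4 had 46.5, 51.4 and 63.0 CPM in the Cre control libraries and 48.8, 58.3 and 60.2 in cKO (log2 0.11, SE 0.08, adjusted p = 0.488). Kcnb2, a delayed rectifier, had 3.19, 5.39 and 8.48 CPM and 3.30, 4.49 and 5.92 CPM (log2 −0.34, SE 0.26, adjusted p = 0.541). Hcn2 had 200, 224 and 237 CPM and 165, 195 and 248 CPM (log2 −0.14, SE 0.09, adjusted p = 0.495). None of these 3 differences was larger than the spread between libraries. The remaining 29 genes had estimates from −0.33 to 0.31 and adjusted p of 0.58 to 0.992.

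By role, the 4 sodium pores (−0.27 to −0.08), the 3 alpha2delta subunits (−0.17 to −0.10) and the 3 Kv1 genes all had negative estimates, and the 3 T-type pores (0.12 to 0.31) all had positive ones. None of these genes passed the test, and the directions did not hold within each sex. In males alone the 3 alpha2delta estimates were positive (0.01 to 0.09). In females alone the 3 T-type estimates were negative (−0.20 to −0.15). Small standard errors went with estimates away from 0 in some members, such as Scn2b (−0.12) and Cacnb3 (0.26). In others the estimate was close to 0. Kcnip4 had a log2 fold change of 0.00 (95% interval −0.13 to 0.13), Kcnab2 0.00 (−0.17 to 0.16), Kcnn1 −0.04 (−0.21 to 0.14) and Cacnb2 −0.04 (−0.19 to 0.12). In whole tissue, fewer cells of a type and less RNA per cell cannot be told apart, and a rise in one cell type can offset a fall in another.

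The second comparison asks what NDI1 did in knockout mice. Between cKO+NDI1 and cKO, 0 of the 41 passed in edgeR's quasi-likelihood test, against 0.209% of all genes, and DESeq2 and limma-voom called 0 as well. At an unadjusted p under 0.05 there were 2 of 41 (8.56% of all genes), Scn2b and Kcnn1. Scn2b was at 413 to 480 CPM in cKO+NDI1 (median 448) against 389 to 431 in cKO (median 399), a log2 fold change of 0.15 (SE 0.06, adjusted p = 0.425). Kcnn1, an SK channel pore activated by calcium, was at 9.14 to 11.6 CPM (median 10.4) against 7.64 to 9.78 (median 9.20), a log2 fold change of 0.22 (SE 0.09, adjusted p = 0.428). Both pairs of ranges overlapped.

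The third comparison sets mice with NDI1 and the knockout against NDI1 control mice. For cKO+NDI1 against NDI1 control 0 of 41 passed by edgeR, DESeq2 or limma-voom (0% of all genes passed by edgeR), and 0 of 41 had an unadjusted p under 0.05 against 4.48% of all genes. The smallest p belonged to Cacna2d1 (log2 −0.19, SE 0.11, adjusted p = 0.998), which encodes an alpha2delta subunit bound by gabapentin. The 95% interval lay within ±0.5 for 30 of the 41.

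Against Cre control, cKO+NDI1 also gave 0 of 41 by edgeR (1.25% of all genes) and by limma-voom, while DESeq2 called 1, Cacnb3. At an unadjusted p under 0.05 there were 5 of 41 (13.5% of all genes): Cacnb3, Kcnb2, Cacnb2, Kcnn1 and Kcnc4. Kcnb2 had the largest estimate, with 2.05 to 5.42 CPM (median 3.48) in cKO+NDI1 against 3.19 to 8.48 (median 5.39) in the Cre control, a log2 fold change of −0.79 (SE 0.26, adjusted p = 0.148). The ranges of the 2 groups overlapped.

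The NDI1 control was also compared with the Cre control. The labels do not say whether these 2 groups differ in NDI1 only. By edgeR 0 of 41 passed (0.00654% of all genes) and DESeq2 and limma-voom called 0. At an unadjusted p under 0.05 there were 3 of 41 (9.2% of all genes). Kcnn1 was at 9.61 to 12.6 CPM (median 11.1) in the NDI1 control against 8.27 to 9.85 (median 9.21) in the Cre control, a log2 fold change of 0.28 (SE 0.08, unadjusted p = 0.00259, adjusted p = 0.271). Only NDI1 control M3 reached into the Cre control range. Cacnb2, a calcium channel beta subunit, was at 35.7 to 52.2 CPM against 47.2 to 54.4, a log2 fold change of −0.21 (SE 0.08, adjusted p = 0.39). Kcnn1 and Cacnb2 are named for these comparisons after their values were seen.

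Kcnn1 had positive estimates in both comparisons of a group with NDI1 against a group without it. They share no library, and the estimates were 0.28 without the knockout and 0.22 with it. Its means were 9.11 ± 0.54 CPM in the Cre control, 8.88 ± 0.98 in cKO, 11.1 ± 1.01 with NDI1 alone and 10.3 ± 0.84 in cKO+NDI1 (SD, n = 6 each). Neither difference passed the threshold over all genes. For the difference between the knockout's effects with and without NDI1, edgeR, DESeq2 and limma-voom called 0 of 41 (0% of all genes by edgeR), and 1 of 41 had an unadjusted p under 0.05, Cacnb3, against 5.18% of all genes.

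Sex was tested over all 4 groups. Between males and females 0 of 41 passed by edgeR, DESeq2 or limma-voom (0.085% of all genes by edgeR), with 9 of 41 at an unadjusted p under 0.05 against 16.9% of all genes. Estimates leaned 1 way: 37 of 41 were lower in males, with a median of −0.14 against 0.00 for all genes tested. The smallest p was that of Cacna2d1 (log2 −0.27, SE 0.08, adjusted p = 0.291).

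The knockout's effect also leaned differently in the sexes. In males alone 28 of 41 estimates for cKO against Cre control were positive (median 0.08), and in females alone 10 of 41 (median −0.24). The test of that difference called 0 of 41 by edgeR, DESeq2 or limma-voom (0% of all genes by edgeR). At an unadjusted p under 0.05 there were 6 of 41 against 20.6% of all genes, with Kcna2 at the smallest p (difference 1.13, SE 0.44, adjusted p = 0.212). The median difference was 0.33 and 31 of 41 were positive.

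These leanings moved with a property of the libraries that runs through all genes. Within groups, 74.8% of the variance of the 41 genes' log2 CPM lay on 1 component and 8.15% on the next. For each library a length slope was computed from genes that are not members, as the change of the log2 deviation from the mean of all 24 libraries per doubling of exon length. The 41 genes are long, with a median of 7947 exon bases against 4120.5 for all genes tested, and 24 of them are in the longest of 5 equal bins (7227 bases or more). In 22 of 24 libraries the median deviation of the 41 genes from the same mean had the sign of the length slope.

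At the ends of that order, the median deviation was −0.41 in NDI1 control M2 (length slope −0.20) and 0.43 in Cre control F3 (length slope 0.17). In Cre control F3, 36 of the 41 genes lay above their mean over all libraries, and in NDI1 control M2 5 of 41 did. Across the 41 genes the SD within groups followed exon length with a Spearman rho of 0.53, given as a description since all genes share the same 24 libraries. Kcnc2, Kcnb2, Kcnq3, Cacna1h and Kcna2 varied most (SD 0.51 to 0.60 on the log2 scale) and Scn2b, Kcnip4, Kcnip1, Cacnb3 and Kcnn1 least (0.08 to 0.13). Of the variable genes, Kcnc2, Kcnb2 and Cacna1h were also low, with means of 6.04, 4.54 and 2.61 CPM.

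**Figure D4:**
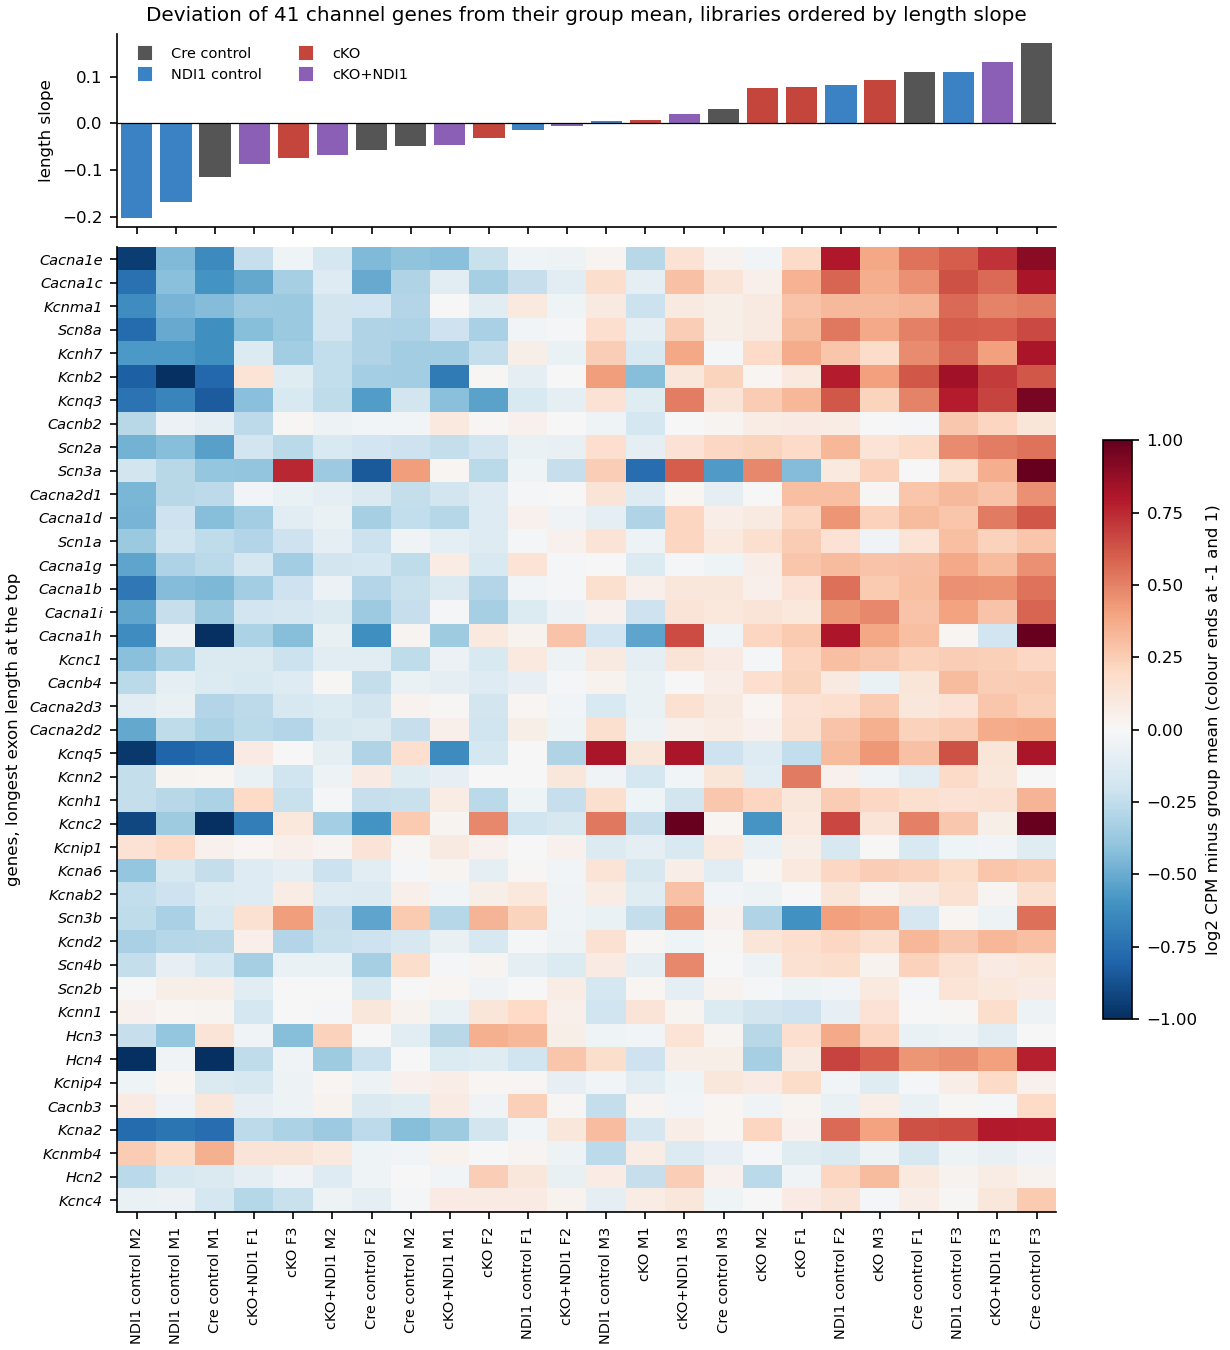
Upper panel, length slope of each library (log2 deviation per doubling of exon length), coloured by group; lower panel, log2 CPM of each of the 41 genes minus its group mean, genes ordered by exon length and libraries by length slope. Most rows turn from blue to red from NDI1 control M2 on the left to Cre control F3 on the right, while Cacnb3, Scn2b, Kcnip4 and Kcnn1 stay pale and Kcnmb4 runs the other way.

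The sexes and groups were not evenly placed on this order. Median length slopes were 0.04 in females and −0.02 in males. They were 0.11 in Cre control females, −0.05 in Cre control males, −0.03 in cKO females and 0.08 in cKO males. In the same comparisons the longest bin of all genes tested had median log2 values of −0.12 (male against female) and 0.31 (knockout effect in males minus females). The 24 members in that bin had medians of −0.21 and 0.55, a wider lean than that of all genes of the bin. Over the 41 genes of any length the medians were −0.14 and 0.33. With the length slope as a covariate, male against female had a median of −0.01 over the 41 genes with 19 positive, and the sex difference of the knockout effect a median of −0.08 with 12 positive. The lean of that difference stayed under both other treatments of length: its median was 0.11 with 28 positive with gene length offsets, and 0.26 with 27 positive without the 3 libraries of extreme slope. For male against female the medians under those treatments were −0.07 with 10 positive and −0.04 with 9 positive. RNA quality and dissection were not tested as sources of the slope.

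Taking length into account narrowed the errors and raised the number of calls in all genes. With offsets fitted on gene length in each library, 3 of 41 passed in cKO against Cre control, Cacnb3, Cacnb4 and Cacna1d, all higher, against 8.13% of all genes. With the length slope as a covariate, a fit chosen after seeing the data, 13 of 41 passed against 20.6% of all genes, and the median standard error over the 41 genes fell from 0.14 to 0.06. The 5 higher genes were Cacnb3 (0.25), Cacna1d (0.25), Cacnb4 (0.19), Scn4b (0.28) and Kcnmb4 (0.20). The 8 lower genes were Kcnh7 (−0.38), Kcna6 (−0.23), Kcna2 (−0.23), Cacna2d2 (−0.20), Scn2a (−0.18), Kcnd2 (−0.18), Scn8a (−0.17) and Kcnma1 (−0.16).

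Over both sexes each of these 13 estimates had the same sign without the covariate and moved by at most 0.04 on the log2 scale. Within the sexes that did not hold. Without the covariate the 5 higher genes were positive in each sex, but 7 of the 8 lower genes had positive estimates in males alone (all but Kcna6), while all 8 were negative in females alone. Scn8a was the widest apart among sodium pores, at 0.26 in males and −0.57 in females, and Kcna2 was at 0.33 and −0.80. Over all 41 genes 21 estimates had another sign in males alone than over both sexes.

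With the slope as a covariate within each sex, also added after seeing the data, the 13 estimates had the same sign in males and in females as over both sexes. These 13 had been picked by the same covariate in the same libraries, so that is no independent check. Over all 41 genes, the signs of 4 in males and 7 in females differed from those of the fit without the covariate over both sexes. Of the 41, 11 were positive in males and 20 in females. The 8 lower genes ran from −0.42 to −0.14 in males and from −0.41 to −0.13 in females, and the 5 higher ones from 0.06 to 0.37 and from 0.22 to 0.48. Of the 41 genes 3 passed in males (Cacnb3, Kcnmb4 and Scn2a, against 5.2% of all genes) and 7 in females (Scn4b, Cacnb4, Cacna1d, Cacna2d2, Kcna2, Kcna6 and Kcnd2, against 13.6%). The direction of the 7 genes in males thus rested on the covariate.

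In the other comparisons of all libraries the covariate gave 1 of 41 in cKO+NDI1 against cKO (Kcnd2, 0.23, 2.55% of all genes), 1 in cKO+NDI1 against NDI1 control (Cacna2d1, −0.22, 0.32%) and 1 in NDI1 control against Cre control (Cacnb3, 0.24, 1.91%). In cKO+NDI1 against Cre control it gave 4, Cacnb3 (0.25), Kcnc4 (0.19), Scn2a (−0.22) and Kcnb2 (−0.61), against 10.2% of all genes.

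**Figure D5:**
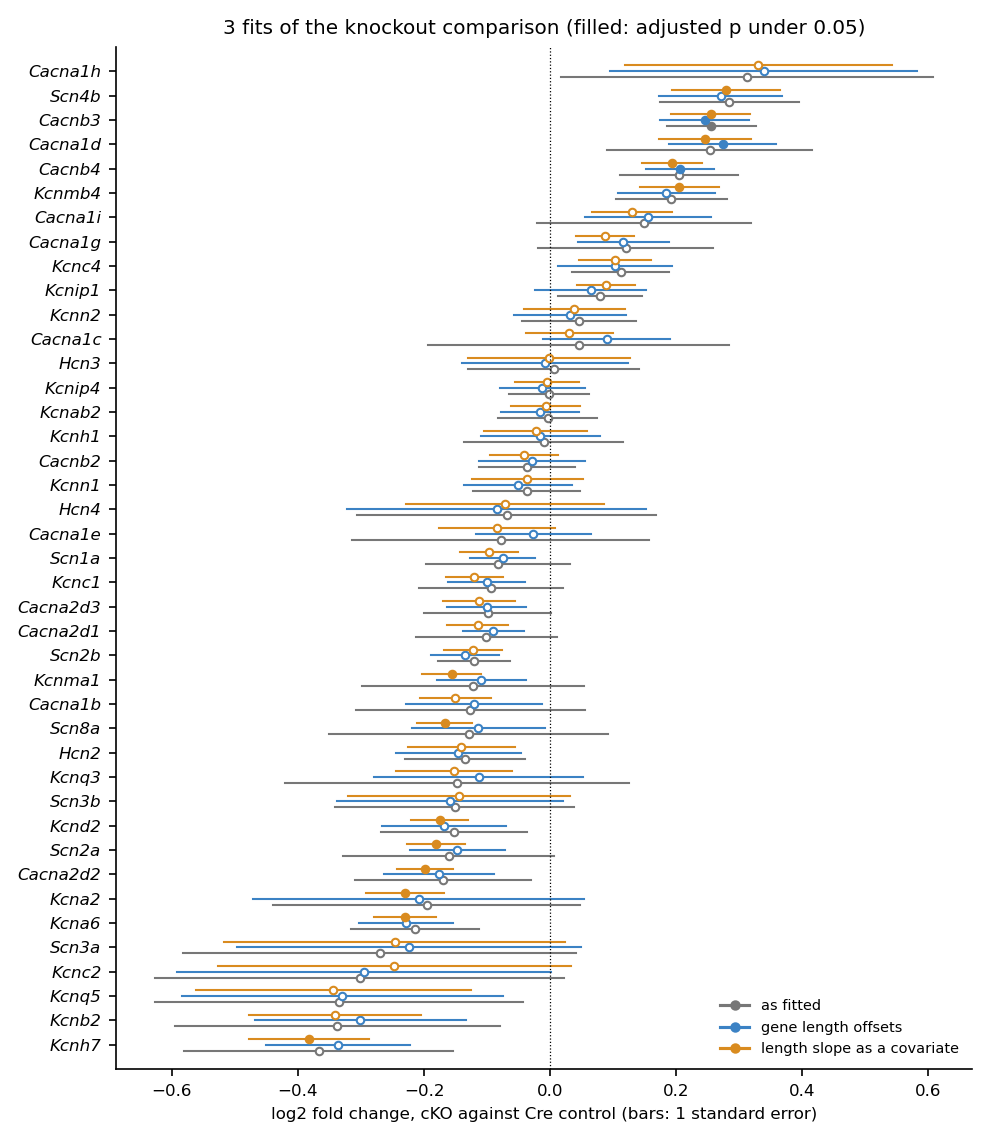
Log2 fold change of each gene in cKO against Cre control under 3 fits, with bars of 1 standard error and filled points for an adjusted p under 0.05. Estimates hardly move between fits, the errors shrink, and the number of filled points goes from 1 to 3 to 13.

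Other genes of the class were read from 3 further lists. Of 57 other voltage-gated channel genes 42 could be tested, and 3 passed in cKO against Cre control, all higher, beside 4.87% of all genes in either direction. They were the sodium-activated potassium channel Kcnt1 (124 ± 11.4 CPM for Cre control and 166 ± 11.2 for cKO, log2 0.43, SE 0.09, adjusted p = 0.00495), the Kv modifier Kcng4 (log2 0.29, SE 0.06, adjusted p = 0.00946) and the EAG-like channel Kcnh3 (log2 1.08, SE 0.25, adjusted p = 0.0121). The median of the 42 was −0.01. In cKO+NDI1 against Cre control Kcnh3 (1.22), the Kv1 auxiliary subunit Kcnab3 (0.66) and Kcnt1 (0.36) passed, all higher, where 1.25% of all genes passed.

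Of 20 genes for channel partners and anchors, the sodium leak channel gene Nalcn passed in cKO against Cre control. It was lower there (118 ± 11.01 and 94.8 ± 6.90 CPM, log2 −0.32, SE 0.07, adjusted p = 0.0092). Of the 20 estimates 17 were negative in that comparison. In NDI1 control against Cre control, cKO+NDI1 against Cre control and male against female 19 were negative. A share of 1 called gene in 20 is near the background of 4.87%, and so is the next list's share of 1 in 17. Of 17 inward rectifier and tandem-pore potassium channel genes, the glial Kcnj10 passed as lower (255 ± 52.4 and 166 ± 17.1 CPM, log2 −0.60, SE 0.16, adjusted p = 0.0314). Kcnk13 was lower in cKO+NDI1 against Cre control (log2 −0.60, SE 0.15, adjusted p = 0.0482). In cKO+NDI1 against cKO none of these 3 lists had a gene past the threshold in edgeR's test.

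Cell type genes moved beside these values. The summed level of 9 astrocyte and Bergmann glia genes was 4772 to 5016 CPM in the Cre control libraries and 3979 to 4507 in cKO, with 2 of 9 lower by the test (Fabp7 and Slc1a3). Of 7 endothelial genes 1 passed as higher (Pecam1) and of 7 mural genes 3 (Acta2, Rgs5 and Myh11), with endothelial sums of 235 to 272 and 257 to 344 CPM. Purkinje cell genes summed to 11094 to 11997 CPM and 10038 to 10859, with 1 of 8 lower (Slc1a6), and granule cell genes to 5197 to 6026 and 5326 to 6051, with 0 of 8 past the threshold. Genes of molecular layer and Golgi interneurons summed to 1251 to 1781 CPM and 1314 to 1855. Of these 8, 1 passed as higher (Lypd6), while 6 estimates were negative. For oligodendrocyte genes the sum ran from 12394 to 14441 CPM among Cre control libraries and from 11763 to 18474 among cKO ones, with 1 of 8 genes higher (Mal).

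In cKO+NDI1 against cKO the oligodendrocyte list, genes of myelin and its formation, was the 1 marker list with genes past the threshold in edgeR's test. Their sum was 9341 to 11309 CPM in cKO+NDI1, below every cKO library, and 9903 to 12379 in the NDI1 control. Of 8 genes 4 passed as lower in cKO+NDI1 against cKO (Mobp, Mal, Cldn11 and Mbp), with 8 of 8 estimates negative. All 8 estimates were also negative in cKO+NDI1 against NDI1 control and in NDI1 control against Cre control, where none of the 8 passed in that test. The part of these shifts in the channel values was not tested.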

How the data were processed

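The authors deposited raw read counts per gene and library; bcl2fastq, Trimmomatic, STAR, HTSeq and the build mm10 are named in the submitters' processing notes, without versions, and how multi-mapped or antisense reads were counted is not given in the sources used here. A deposited length column held the summed exons of all transcripts for 75.9% of genes, so exon lengths came from GENCODE vM21. The members and lists were chosen with earlier results of these data known.

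Counts were tested with edgeR 4.0.16 (TMM, filterByExpr, robust quasi-likelihood F test, group and sex, all 24 libraries; R 4.3.3), adjusted by Benjamini-Hochberg over 15300 genes, and the pipeline was tested on simulated data. Alternatives used DESeq2 1.42.0 and limma-voom 3.58.1, other scalings and filters, thinned counts, length terms, each sex, and each library left out. CPM are counts scaled by TMM. Genes described in full passed in a group comparison or were among the 12 smallest p-values in cKO against Cre control; each family's highest member and the called genes of other lists, by smallest p, were added.

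Of 60 pairs of libraries within groups none was a copy (lowest chi-square per degree of freedom 4.67). The labels name no batch, and 0 library columns were left unused.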

Additional observations from a re-analysis of the deposited data

Results flagged for a closer look

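In each of the 4 groups of 6 libraries, every gene was checked for a single library standing apart, by the gap to its nearest neighbour relative to the range of the group. Chance flags about 1 in 20 groups, and 11 of 164 were flagged, so a single flag carries little weight. Cacna1h reached 5.56 CPM in Cre control F3, where the other 5 libraries lay between 1.04 and 2.66, and 4.04 in NDI1 control F2, against 1.499 to 2.37. Kcna2 reached 78.3 in cKO+NDI1 F3, against 35.2 to 49.0. These 3 libraries had positive length slopes.

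Kcnc2 was at 11.5 CPM in cKO+NDI1 M3 against 3.31 to 5.55 in the other 5, and Kcnab2 was at 231.63 in the same library against 173 to 192. That library also had a brainstem Hox sum of 15.9 CPM, the highest of its group, and its Scn4b level of 158 CPM was the highest of the 24. In Cre control M2 and cKO F3, with Hox sums of 22.4 and 25.0, Kcnc2 was at 7.32 and 5.89 and Scn4b at 120 and 125, inside their group ranges. The relation was not tested.

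In cKO F1, Kcnn2 was at 62.0 CPM against 37.6 to 43.1, and Cacna2d1 at 65.4 against 48.8 to 53.7. Hcn4 was at 5.37 in cKO M3 against 2.82 to 3.76, and Kcnmb4 at 35.1 in Cre control M1 against 24.6 to 27.1. On the low side, Cacnb2 was at 43.3 in cKO M1 against 48.9 to 51.6, and Kcnc4 at 48.8 in cKO F3 against 56.2 to 60.2.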

How the results depend on the processing

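For cKO against Cre control the number of the 41 genes called was 1 and became 0 with no filter on low counts, with only the compared groups in the fit, in males alone and in females alone, 3 with gene length offsets and 13 with the length slope as a covariate, a fit chosen after seeing the data (3 in males alone and 7 in females alone). Leaving out 1 library gave 0 to 1. The log2 fold change of Cacnb3 stayed between 0.22 and 0.37 over 39 alternatives, with adjusted p of 0.00419 to 0.265. For cKO+NDI1 against Cre control the count of 0 became 1 with library size alone, with DESeq2 (both Cacnb3) and with gene length offsets (Kcnb2), and 4 with the slope covariate, which gave 1 in place of 0 in cKO+NDI1 against cKO, cKO+NDI1 against NDI1 control and NDI1 control against Cre control. Leaving out 1 library gave 0 in all comparisons other than cKO against Cre control. In the 3 comparisons on interaction and sex the count was 0 under every alternative run. Without the 3 libraries of extreme length slope (Cre control F3, NDI1 control M1 and M2), also chosen after seeing the data, Cacnb3 was again the 1 gene called. Apart from the smaller number of libraries in some fits, causes were not tested. Cacnb3 was higher under each of these alternatives, whereas in males alone 21 of the 41 estimates changed sign, among them Kcnh7 (0.06) and Kcnd2 (0.07), which the slope covariate called lower.

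Replicate numbers have no stated meaning, and same-numbered libraries did not consistently deviate together (correlations −0.40 to 0.51, over 0.1 in 19 of 36 pairs). This differed between numbers: pairs of M3 libraries ran from 0.19 to 0.51 and pairs of F1 libraries from −0.40 to 0.41. With the number as a replicate block 1 of 41 genes was called in cKO against Cre control and 0 in the other genotype comparisons; the sex comparisons could not be fitted with it.

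Depth limits the low genes most: Scn3a had as few as 7 counts in a library and Kcnq5 9. Cell type levels and the length trend moved by less than the spread on library size alone. Shares without length moved more for 8 leading genes. In the Cre control Cacna1b fell to 19.6% of the 4 listed high-voltage calcium pores and Kcna2 to 41.5% of the listed Kv1 pores. Cacna1a and Kcna1, with means of 290 and 308 CPM in the Cre control, are outside these sums.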
